A study of Homo sapiens with 30 samples.

Results

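Most ZNF genes encode proteins that carry C2H2 zinc fingers, short folds held by a zinc ion that mostly contact DNA. The human genome holds a large number of genes under numbered ZNF symbols, some of them without such fingers. The expression of 207 of these genes was followed in a lung coculture after exposure to model combustion and secondary organic aerosols (SOA). The members were chosen by 2 measured conditions, a symbol of ZNF followed by digits alone and a raw count of at least 30 in at least 3 of the 15 libraries of EA.hy926 cells and likewise of A549 cells. Of 378 such symbols among the 18460 genes in the count tables, 231 met the count condition in EA.hy926 cells, 263 in A549 cells and 207 in both lines, while 24 met it in EA.hy926 cells alone, 56 in A549 cells alone and 91 in neither. All 207 are annotated as protein coding. The count condition used the libraries that are compared here, so membership and level are descriptions and not results.

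The study asked how SOA of an anthropogenic and of a biogenic precursor, and soot alone, act on the cells that meet the aerosol and on the endothelial cells beneath them. A549, a human lung carcinoma line with epithelial features, was grown on the upper side of an insert membrane and was exposed directly at the air-liquid interface. EA.hy926, an endothelial hybrid line made by fusing umbilical vein endothelial cells with A549 cells, was grown on the lower side and was not exposed directly. Cocultures were exposed for 4 h to SOANAP-SP (soot particles aged together with naphthalene), to SOAβPIN-SP (soot particles aged together with β-pinene), to SP (fresh soot particles) or to clean air (CA), and both lines were sequenced after separate harvest. The labels give 1 mg/ml of soot and 4 mg/ml of precursor, where the methods of the study give these amounts per cubic metre of air. Each line had 4 libraries with SOANAP-SP, 4 with SOAβPIN-SP, 3 with SP and 4 in CA. The libraries of a group came from separate exposure experiments, 12 in all, of which 3 gave both an aerosol and a CA library. Both are single established lines, and EA.hy926 carries part of the A549 genome, so neither stands for a tissue.

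Many ZNF proteins carry, beside their fingers, a KRAB domain, which recruits the co-repressor TRIM28 and with it the histone methyltransferase SETDB1, so that chromatin is silenced where the fingers bind. KRAB ZNF genes spread by tandem duplication, and large arrays of them lie on chromosome 19. Many KRAB ZNF proteins bind transposable elements, and for most a target gene is not established. Other ZNF proteins without KRAB act as activators, RNA-processing factors or ubiquitin ligases.

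Library totals ran between 10003314 and 16610686 counts in EA.hy926 cells and between 7317041 and 15012539 counts in A549 cells. Of a fixed list of epithelial markers, 10 of 12 were in the tables, with a summed level of 1538 to 2118 CPM (counts scaled to a fixed library total) in EA.hy926 libraries and 14510 to 20271 CPM in A549 libraries. Of a fixed list of endothelial markers, 11 of 12 were in the tables, with 2071 to 2482 CPM in EA.hy926 libraries and 86.7 to 126 CPM in A549 libraries. The epithelial splicing factor ESRP1 was at 0 in EA.hy926 libraries, but its group means in A549 cells were only 0.383 to 0.876 CPM. The endothelial gene EMCN was at 0 in A549 libraries and at only 1.63 to 3.14 CPM in EA.hy926 cells. VWF, a defining endothelial gene, was near 0 even in EA.hy926 cells (1.14 to 1.58 CPM). Other listed markers were well counted in the opposite line. In EA.hy926 cells, KRT7 was at 726 to 881 CPM, KRT8 at 502 to 645 CPM and KRT18 at 398 to 466 CPM. In A549 cells, EGFL7 was at 86.8 to 108 CPM. Within A549, the epithelial sum was 15931 to 18171 CPM with SOANAP-SP, 15887 to 20271 CPM with SOAβPIN-SP and 17597 to 18923 CPM with SP, against 14510 to 16144 CPM in CA, so that the libraries with SP lay above CA and the others overlapped it. The mitochondrial share of counts in A549 was 13.1% to 17.4% with SOANAP-SP, 9.87% to 13.1% with SOAβPIN-SP and 9.75% to 11.6% with SP, against 10.7% to 15.3% in CA, each with overlap. The part of either in the results was not tested.

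Members were mostly well counted. A count of at least 30 was reached in all 15 libraries by 167 members in EA.hy926 cells and by 155 in A549 cells, and in all 30 libraries by 137. The mean count was at least 30 for 197 members in EA.hy926 cells and 192 in A549 cells. Through CA libraries alone, 2 members met the condition in EA.hy926 cells (ZNF449 and ZNF133) and 1 in A549 cells (ZNF449). Such genes had to be lower with an aerosol. Without them, the lower members with SOANAP-SP, SOAβPIN-SP and SP were 68, 56 and 38 in EA.hy926 cells and 94, 61 and 39 in A549 cells. Just inside the condition, ZNF248 and ZNF251 had a count of 30 in the library that decided it in EA.hy926 cells (83 and 133 in A549 cells), and ZNF627 had 30 in EA.hy926 cells and 30 in A549 cells. Just outside, ZNF417 (29 in EA.hy926, 33 in A549), ZNF224 (29 and 72) and ZNF460 (48 in EA.hy926, 29 in A549) missed it.

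More members were called lower than higher with each of the aerosols in each of the lines. A member was called lower or higher when edgeR's quasi-likelihood test gave an adjusted p of at most 0.05 (Benjamini-Hochberg, over all genes tested in the line) and the log2 fold change against CA was at least 0.5 in size. In EA.hy926 cells, 70 of 207 members were lower with SOANAP-SP (33.8%, against 8.57% of all genes tested), 58 with SOAβPIN-SP (28.02%, against 6.14%) and 40 with SP (19.3%, against 5.12%). In A549 cells, 95 members were lower with SOANAP-SP (45.9%, against 11.3% of all genes tested), 62 with SOAβPIN-SP (29.95%, against 8.93%) and 40 with SP (19.3%, against 3.97%). In EA.hy926 cells, 14 were higher with SOANAP-SP (6.76%, all genes 6.26%), 8 with SOAβPIN-SP (3.86%, all genes 5.04%) and 8 with SP (3.86%, all genes 4.72%). In A549 cells, 7 were higher with SOANAP-SP (3.38%, all genes 6.92%), 8 with SOAβPIN-SP (3.86%, all genes 4.31%) and 1 with SP (0.483%, all genes 2.02%). The shares of higher members were near or below those of all genes.

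**Figure D1:**
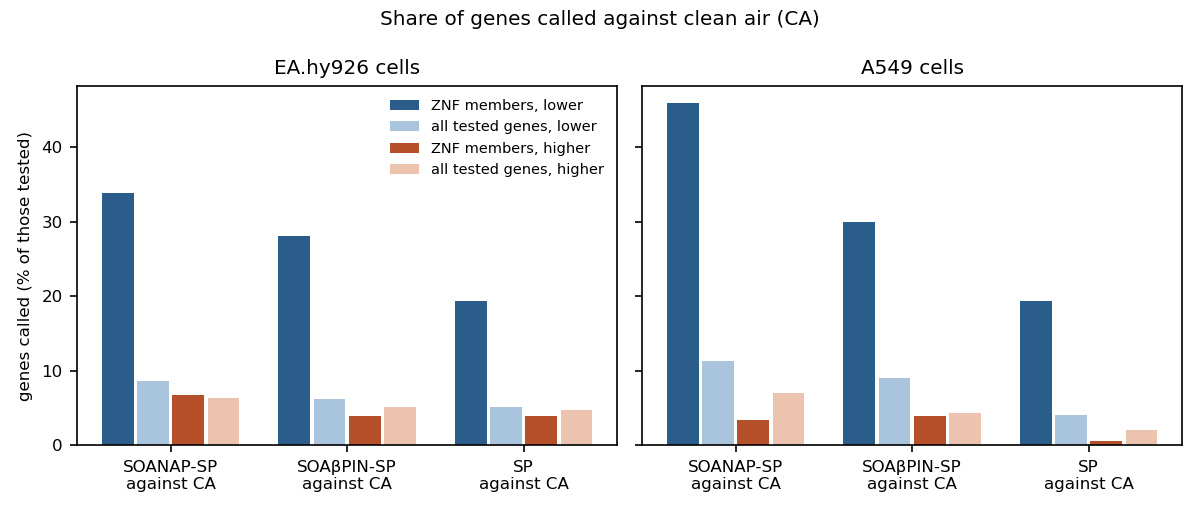
Share of genes called lower or higher than CA, in percent, for each aerosol in each cell line, for the 207 ZNF members and for all genes tested in the line. The members' share of lower calls is above that of all genes in each of the 6 comparisons, from 19.3% to 45.9%.

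The members' median fold change lay below 0 in each comparison with CA. The median log2 fold change of the members in EA.hy926 cells was -0.27 with SOANAP-SP, -0.22 with SOAβPIN-SP and -0.16 with SP, where the medians over all genes were 0.00, -0.01 and -0.02. In A549 cells, the members' medians were -0.41, -0.27 and -0.25 with the same aerosols, where those over all genes were 0.00, 0.01 and 0.00. A negative log2 fold change was found for 65.2%, 77.3% and 69.6% of the members in EA.hy926 cells and for 79.2%, 72.0% and 76.3% in A549 cells, where between 48.7% and 52.6% of all genes had one. Many of these values did not pass the test, and the median standard error of 1 member was between 0.14 and 0.17. In A549 cells, the members together took 0.435% to 0.466% of all counts with SOANAP-SP, 0.462% to 0.531% with SOAβPIN-SP and 0.485% to 0.536% with SP, against 0.543% to 0.572% in CA, and no aerosol library overlapped those of CA. In EA.hy926 cells, the shares were 0.495% to 0.527%, 0.483% to 0.506% and 0.510% to 0.552% with the same aerosols, against 0.515% to 0.577% in CA. There the libraries with SOAβPIN-SP lay below those of CA, and those with SOANAP-SP and SP overlapped them. In these bulk samples, fewer cells and less RNA per cell cannot be told apart.

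Members are weakly expressed genes, so the same share was taken over genes of like level, a comparison added after the data were seen. Among all genes between the 10th and 90th percentile of the members' levels, 10.9%, 7.93% and 6.51% were lower in EA.hy926 cells with SOANAP-SP, SOAβPIN-SP and SP. The members in that range were at 32.7%, 27.9% and 18.8%. In A549 cells, 12.5%, 9.30% and 4.39% of genes of like level were lower with the same aerosols, where the members were at 45.5%, 31.5% and 20%.

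Lower members were often lower in both lines. In all, 119 members were lower in at least 1 of the 6 comparisons, of which 62 were lower in both lines (29.95% of members, where 4.69% of the 9900 genes tested in both were), 18 in EA.hy926 cells only (all genes 4.77%) and 39 in A549 cells only (all genes 8.8%), and 71 members were called in no comparison. With SOANAP-SP, 54 members were lower in both lines (26.1% of members, where 4.02% of the 9900 genes were). They were 77.1% of those lower in EA.hy926 cells and 56.8% of those lower in A549 cells. With SOAβPIN-SP, 31 were shared (15.0% of members, all genes 2.12%), which were 53.5% and 50% of the lists. With SP, 16 were shared (7.73% of members, all genes 1.35%), which were 40% of each list. The overlap of the lists over all genes is not given here. Across members, the log2 fold changes of the lines correlated with Pearson r of 0.51 with SOANAP-SP, 0.45 with SOAβPIN-SP and 0.45 with SP, where all 9900 genes gave 0.44, 0.30 and 0.39. The points share the cocultures and the CA libraries, so r is a description only.

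**Figure D2:**
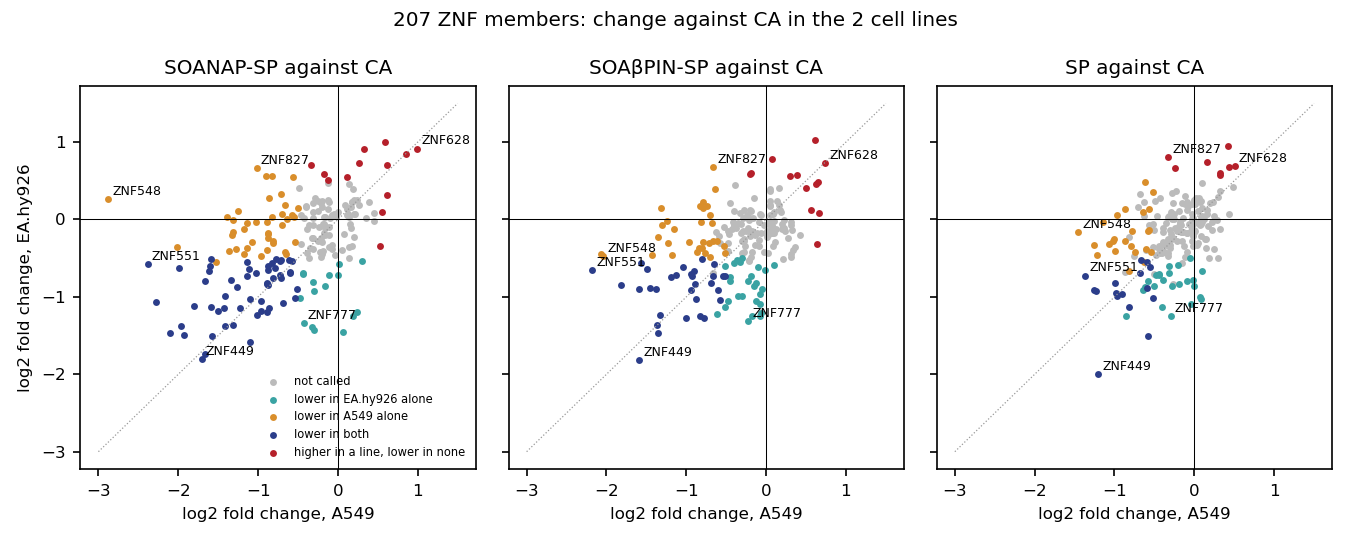
Log2 fold change of each of the 207 members against CA in EA.hy926 cells (y axis) and in A549 cells (x axis), 1 panel per aerosol, coloured by the line in which the member was called lower, with rises marked where it was lower in neither and a dotted line of equal values. With SOANAP-SP, 54 points were called lower in both lines, and ZNF548 lies farthest to the left.

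Lower with all 3 aerosols in both lines were 12 members (5.80%, where 92 of the 9900 genes, or 0.929%, were), namely ZNF449, ZNF549, ZNF551, ZNF614, ZNF260, ZNF319, ZNF561, ZNF766, ZNF512, ZNF302, ZNF579 and ZNF623. Levels below are counts scaled to the mean library of the line (normalised counts), in replicate order. ZNF449 (chromosome X, 135344796 to 135363413, forward strand), a SCAN zinc finger gene, had the largest mean fall of the 12. It met the count condition through CA libraries alone in both lines, so it had to be lower and its fall is a description only. Without members chosen in that way, 11 were lower with all 3 aerosols in both lines. In EA.hy926 cells, it had 6.999, 12, 12.5 and 11 normalised counts with SOANAP-SP, 12.4, 10.03, 5.99 and 13.6 with SOAβPIN-SP and 9.69, 12.9 and 3.57 with SP, against 40.2, 38.1, 28.7 and 43.1 in CA. In A549 cells, it had 10.03, 17.8, 18.8 and 13.4 normalised counts with SOANAP-SP, 17.1, 16.6, 14.2 and 17 with SOAβPIN-SP and 20.3, 26.3 and 17.6 with SP, against 46, 43.5, 50.3 and 56.8 in CA. All 11 aerosol libraries of each line lay below the lowest CA library. Its log2 fold changes (± SE) were -1.802 ± 0.28 with SOANAP-SP (adjusted p = 5.7e-05), -1.81 ± 0.29 with SOAβPIN-SP (adjusted p = 0.00014) and -1.996 ± 0.31 with SP (adjusted p = 0.00017) in EA.hy926 cells. In A549 cells, they were -1.71 ± 0.22 with SOANAP-SP (adjusted p = 1.4e-05), -1.59 ± 0.22 with SOAβPIN-SP (adjusted p = 2.9e-05) and -1.204 ± 0.24 with SP (adjusted p = 0.0034).

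ZNF561 (chromosome 19, 9604680 to 9621236, reverse strand), a KRAB gene, fell likewise. It had 88, 82.3, 95.7 and 78.4 normalised counts with SOANAP-SP, 85.9, 69.1, 79.1 and 70.1 with SOAβPIN-SP and 113, 116 and 105 with SP, against 197, 187, 200.2 and 200.01 in CA in EA.hy926 cells. It had 55.1, 61.3, 43.5 and 70.6 normalised counts with SOANAP-SP, 58.5, 56.9, 60.7 and 76.5 with SOAβPIN-SP and 79.1, 99.7 and 69.2 with SP, against 177, 191, 138 and 151 in CA in A549 cells. No aerosol library of either line overlapped CA. The log2 fold changes were -1.18 ± 0.11 with SOANAP-SP (adjusted p = 1.5e-07), -1.37 ± 0.11 with SOAβPIN-SP (adjusted p = 1.8e-07) and -0.81 ± 0.12 with SP (adjusted p = 8.4e-05) in EA.hy926 cells and -1.5003 ± 0.16 with SOANAP-SP (adjusted p = 2.0e-06), -1.37 ± 0.16 with SOAβPIN-SP (adjusted p = 6.4e-06) and -0.997 ± 0.18 with SP (adjusted p = 0.0016) in A549 cells. ZNF614, a KRAB gene, averaged 52.7 ± 3.603 with SOANAP-SP, 59.9 ± 11.3 with SOAβPIN-SP and 58.2 ± 9.25 with SP, against 110.3 ± 13.6 in CA in EA.hy926 cells (SD, n = 4, SP n = 3). It averaged 15 ± 4.73 with SOANAP-SP, 25.3 ± 8.797 with SOAβPIN-SP and 30.3 ± 6.08 with SP, against 72 ± 22.7 in CA in A549 cells, again with no overlap with CA in either line. The call with SP in A549 cells was lost without SP replicate 3 (adjusted p = 0.063). ZNF319, a finger gene with no KRAB A box whose exons overlap USB1 on the other strand, averaged 87.1 ± 18.3 with SOANAP-SP, 81.7 ± 4.92 with SOAβPIN-SP and 96.6 ± 8.11 with SP, against 193 ± 26.8 in CA in EA.hy926 cells and 201 ± 27.5 with SOANAP-SP, 239 ± 45.5 with SOAβPIN-SP and 308 ± 81.8 with SP, against 601 ± 77.7 in CA in A549 cells, with no overlap. Whether counting used strand is not stated in the sources read here, so its reads and those of USB1 cannot be told apart.

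ZNF260, which has fingers and no KRAB A box, averaged 39.5 ± 10.2 with SOANAP-SP, 40.9 ± 5.98 with SOAβPIN-SP and 52.3 ± 5.01 with SP, against 114 ± 14.2 in CA in EA.hy926 cells. It averaged 94.8 ± 23 with SOANAP-SP, 108 ± 22.4 with SOAβPIN-SP and 158 ± 32.4 with SP, against 279 ± 52.1 in CA in A549 cells, with every aerosol library below CA in each line. The call with SP in A549 cells was lost without SP replicate 3 (adjusted p = 0.069). ZNF549, a KRAB gene whose exons overlap ZNF550 on the other strand, had log2 fold changes of -1.49, -0.85 and -0.95 in EA.hy926 cells and -1.93, -1.82 and -0.98 in A549 cells with SOANAP-SP, SOAβPIN-SP and SP. Its call with SP in A549 cells was lost without CA replicate 1 (adjusted p = 0.061), CA replicate 4 (adjusted p = 0.073), SP replicate 1 (adjusted p = 0.073) or SP replicate 3 (adjusted p = 0.13). ZNF551 had -0.58, -0.66 and -0.73 in EA.hy926 cells and -2.39, -2.18 and -1.36 in A549 cells. Its calls in EA.hy926 cells were lost with SOANAP-SP without CA replicate 2 (adjusted p = 0.055), CA replicate 3 (adjusted p = 0.066), SOANAP-SP replicate 1 (adjusted p = 0.078) or SOANAP-SP replicate 4 (adjusted p = 0.062), with SOAβPIN-SP without SOAβPIN-SP replicate 1 (log2 fold change -0.49) and with SP without SP replicate 1 (adjusted p = 0.056) or SP replicate 3 (adjusted p = 0.080). ZNF766 had -1.38, -0.83 and -0.92 in EA.hy926 cells and -1.97, -0.89 and -1.23 in A549 cells. In EA.hy926 cells its libraries with SOAβPIN-SP overlapped CA, and the calls were lost with SOAβPIN-SP without CA replicate 4 (adjusted p = 0.051), SOAβPIN-SP replicate 2 (adjusted p = 0.060), SOAβPIN-SP replicate 3 (adjusted p = 0.058) or SOAβPIN-SP replicate 4 (adjusted p = 0.063) and with SP without SP replicate 1 (adjusted p = 0.065) or SP replicate 2 (adjusted p = 0.061).

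Promoters of 2 members lower in all 6 comparisons and of 2 higher members are shown, to set side by side what lies before genes that moved in opposite directions. Each run is the 250 bases before the RefSeq start of the gene in GRCh38.p14, read 5′ to 3′ on the strand of the gene, and capitals mark matches on either strand to the CCAAT box, to the ETS factor core CCGGAAG, to the cAMP response element (CRE) TGACGTCA or to the TATA box letters TATAAA. ZNF260 lies on the reverse strand with the window at chr19:36528272-36528521, and ZNF766 on the forward strand at chr19:52269337-52269586. ZNF628 lies on the forward strand at chr19:55476367-55476616, and ZNF335 on the reverse strand at chr20:45972204-45972453.
ZNF260: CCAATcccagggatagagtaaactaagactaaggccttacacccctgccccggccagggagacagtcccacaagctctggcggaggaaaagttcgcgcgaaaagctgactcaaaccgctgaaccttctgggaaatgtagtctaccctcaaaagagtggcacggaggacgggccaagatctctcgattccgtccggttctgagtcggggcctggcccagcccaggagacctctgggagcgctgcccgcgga
ZNF766: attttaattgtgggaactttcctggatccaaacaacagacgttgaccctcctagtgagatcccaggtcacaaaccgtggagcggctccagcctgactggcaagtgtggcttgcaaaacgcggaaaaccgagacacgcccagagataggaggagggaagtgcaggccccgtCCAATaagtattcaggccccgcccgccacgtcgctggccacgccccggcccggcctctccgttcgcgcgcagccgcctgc
ZNF628: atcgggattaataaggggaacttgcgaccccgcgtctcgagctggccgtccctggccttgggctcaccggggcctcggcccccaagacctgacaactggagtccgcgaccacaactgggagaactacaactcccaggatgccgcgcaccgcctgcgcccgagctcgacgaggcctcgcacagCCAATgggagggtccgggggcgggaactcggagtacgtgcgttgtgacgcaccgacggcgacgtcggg
ZNF335: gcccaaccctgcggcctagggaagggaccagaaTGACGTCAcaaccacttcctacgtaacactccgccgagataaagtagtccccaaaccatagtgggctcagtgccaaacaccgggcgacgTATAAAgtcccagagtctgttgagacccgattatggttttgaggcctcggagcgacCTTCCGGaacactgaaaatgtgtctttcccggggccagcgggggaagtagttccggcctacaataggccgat

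ZNF260 and ZNF766, both lower, and ZNF628, higher, each hold CCAAT, and ZNF335, higher, holds the ETS, CRE and TATAAA letters. Of others lower with each aerosol in both lines, ZNF549, ZNF551 and ZNF319 hold CCAAT, and ZNF614 and ZNF561 do not. ZNF549 and ZNF319 also hold the ETS letters, and ZNF561 holds the CRE letters. Over the 177 members with a promoter in the RefSeq table, counting both strands, 33.9% hold CCGGAAG, against 18.1% of 8127 promoters of tested genes. CCAAT is in 40.1% of members and 35.9% of tested genes, GCATGCGC (read by NRF1) in 6.21% and 5.46%, TGACGTCA in 4.52% and 3.21%, TATAAA in 3.39% and 4.55%, and TCTCGCGA in 0.565% and 2.53%. The median GC content of these windows was 62.4% in members and 65.6% in tested genes. CCAAT was in 48.5% of the promoters of members lower in any comparison and in 30% of the others. It was likewise in 51.3% of the promoters of members with a KRAB A box and in 31.7% of those without. CCGGAAG was in 36.1% of the promoters of members lower in any comparison and in 31.25% of the others, and TGACGTCA in 4.12% and 5%. These matches are descriptions of letters and not of bound sites.

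In the directly exposed A549 cells, 12 members were lower with all 3 aerosols and called with none in EA.hy926 cells (5.797% of members, where 1.01% of the 9900 genes tested in both lines were). ZNF548 (chromosome 19, 57389850 to 57402992, forward strand), a KRAB gene, had 9.02, 12.9, 12.9 and 3.82 normalised counts with SOANAP-SP, 12.8, 25.2, 14.2 and 14.7 with SOAβPIN-SP and 27.8, 31.8 and 18.9 with SP, against 65, 61.5, 49.1 and 109 in CA, so that each aerosol library of A549 lay below CA. In EA.hy926 cells, it had 109.99, 136, 111 and 111 normalised counts with SOANAP-SP, 79.1, 51.3, 56.3 and 94.2 with SOAβPIN-SP and 74.9, 97.3 and 90.3 with SP, against 108, 91.2, 96.9 and 94.4 in CA, with the libraries of SOANAP-SP above CA and the others overlapping. Its log2 fold changes were 0.26 ± 0.16 with SOANAP-SP (adjusted p = 0.24), -0.47 ± 0.17 with SOAβPIN-SP (adjusted p = 0.050) and -0.16 ± 0.18 with SP (adjusted p = 0.58) in EA.hy926 cells, none past both thresholds in this fit, although limma-voom called the value with SOAβPIN-SP. They were -2.88 ± 0.33 with SOANAP-SP (adjusted p = 3.0e-06), -2.05 ± 0.30 with SOAβPIN-SP (adjusted p = 4.4e-05) and -1.45 ± 0.32 with SP (adjusted p = 0.0064) in A549 cells. The difference between the lines (EA.hy926 minus A549) was 3.14 ± 0.36 (adjusted p = 2.6e-07) with SOANAP-SP, 1.58 ± 0.34 (adjusted p = 0.0013) with SOAβPIN-SP and 1.31 ± 0.36 (adjusted p = 0.026) with SP. The last was lost without A549 CA replicate 4 (adjusted p = 0.077), A549 SP replicate 1 (adjusted p = 0.056), A549 SP replicate 3 (adjusted p = 0.11) or EA.hy926 SP replicate 2 (adjusted p = 0.073).

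ZNF264, a KRAB gene of the same array, had 115, 147, 129.7 and 130.2 normalised counts with SOANAP-SP, 144, 125, 115 and 107 with SOAβPIN-SP and 121, 131 and 124 with SP, against 121, 147, 115 and 131 in CA in EA.hy926 cells. It had 80.2, 76.6, 76.4 and 129.8 normalised counts with SOANAP-SP, 113, 102, 67.8 and 103 with SOAβPIN-SP and 108, 127 and 89.3 with SP, against 233, 226, 222 and 269.7 in CA in A549 cells, where all aerosol libraries lay below CA, whereas those of EA.hy926 overlapped it. The line difference of its log2 fold change was 1.11 ± 0.23 (adjusted p = 0.0029) with SP. ZNF274, a KRAB and SCAN protein known to bring SETDB1 to the 3′ ends of other ZNF genes, averaged 167 ± 18.3 with SOANAP-SP, 172 ± 51.4 with SOAβPIN-SP and 169.7 ± 36.2 with SP, against 154 ± 17.4 in CA in EA.hy926 cells. It averaged 85.6 ± 8.705 with SOANAP-SP, 81.2 ± 7.47 with SOAβPIN-SP and 112 ± 13.3 with SP, against 203 ± 30.4 in CA in A549 cells (SD, n = 4, SP n = 3), where the groups did not overlap. Its line difference was 1.47 ± 0.23 (adjusted p = 2.9e-05) with SOAβPIN-SP. ZNF773 averaged 57.8 ± 23.3 with SOANAP-SP, 62.8 ± 19.2 with SOAβPIN-SP and 59.8 ± 5.27 with SP, against 73 ± 6.79 in CA in EA.hy926 cells. It averaged 11.1 ± 3.48 with SOANAP-SP, 18.2 ± 1.67 with SOAβPIN-SP and 22.1 ± 8.65 with SP, against 45.9 ± 8.93 in CA in A549 cells. The line difference with SOANAP-SP was 1.65 ± 0.37 (adjusted p = 0.0022). Its call with SP in A549 cells was lost without CA replicate 2 (adjusted p = 0.056), SP replicate 2 (adjusted p = 0.086) or SP replicate 3 (adjusted p = 0.10) or in a fit of the compared groups alone (adjusted p = 0.050).

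ZNF134, lower in A549 cells with each aerosol and in EA.hy926 cells with SOANAP-SP, had the largest line difference with SOAβPIN-SP of all members, 1.63 ± 0.23 (adjusted p = 1.0e-05). It averaged 186 ± 24.7 with SOANAP-SP, 210.3 ± 15.8 with SOAβPIN-SP and 227 ± 34.4 with SP, against 287 ± 37.3 in CA in EA.hy926 cells. It averaged 132 ± 19.6 with SOANAP-SP, 122 ± 36.6 with SOAβPIN-SP and 219 ± 43.4 with SP, against 522 ± 121 in CA in A549 cells. ZNF551 fell in both lines but by more in A549 cells, with a line difference of 1.801 ± 0.31 (adjusted p = 0.00016) with SOANAP-SP and 1.53 ± 0.31 (adjusted p = 0.00096) with SOAβPIN-SP.

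In the EA.hy926 cells beneath, 7 members were lower with all 3 aerosols and called with none in A549 cells (3.38% of members, where 1.09% of the 9900 genes were). ZNF777 (chromosome 7, 149431363 to 149461062, reverse strand), a KRAB gene, had 92, 98.9, 87.7 and 125 normalised counts with SOANAP-SP, 112, 95.9, 71.9 and 128 with SOAβPIN-SP and 100.4, 109.5 and 111 with SP, against 201, 262, 261 and 295 in CA in EA.hy926 cells, all below CA. In A549 cells, it had 510.4, 477, 571 and 596 normalised counts with SOANAP-SP, 581, 598, 596 and 694 with SOAβPIN-SP and 513, 660.5 and 596 with SP, against 743, 619, 775 and 758 in CA, where the libraries of SOANAP-SP lay below CA and the others overlapped. Its log2 fold changes were -1.34 ± 0.16 with SOANAP-SP (adjusted p = 2.6e-06), -1.31 ± 0.16 with SOAβPIN-SP (adjusted p = 8.1e-06) and -1.25 ± 0.17 with SP (adjusted p = 5.0e-05) in EA.hy926 cells and -0.43 ± 0.10 with SOANAP-SP (adjusted p = 0.0031), -0.23 ± 0.10 with SOAβPIN-SP (adjusted p = 0.11) and -0.30 ± 0.11 with SP (adjusted p = 0.096) in A549 cells, where the value with SOANAP-SP passed when library totals set the scale. ZNF589, a KRAB gene, averaged 46.5 ± 13.3 with SOANAP-SP, 59.7 ± 11.6 with SOAβPIN-SP and 62.2 ± 4.22 with SP, against 128 ± 23.2 in CA in EA.hy926 cells, with no overlap with CA. It averaged 30.1 ± 10.5 with SOANAP-SP, 27.4 ± 6.15 with SOAβPIN-SP and 30.6 ± 6.26 with SP, against 28.9 ± 6.76 in CA in A549 cells, with overlap, and the line difference was -1.52 ± 0.32 (adjusted p = 0.0011) with SOANAP-SP and -1.11 ± 0.35 (adjusted p = 0.060) with SP, which passed when the coculture was a block. ZNF775, whose exons overlap REPIN1 on the same strand, averaged 34.9 ± 11.4 with SOANAP-SP, 36 ± 6.93 with SOAβPIN-SP and 39.6 ± 9.94 with SP, against 82.7 ± 22.3 in CA in EA.hy926 cells. It averaged 71.7 ± 8.67 with SOANAP-SP, 61.5 ± 14.3 with SOAβPIN-SP and 61 ± 6.96 with SP, against 62.8 ± 8.01 in CA in A549 cells, where the groups overlapped, and its line difference was -1.45 ± 0.29 (adjusted p = 0.00063) with SOANAP-SP and -1.05 ± 0.32 (adjusted p = 0.049) with SP. The call with SP was lost without A549 CA replicate 1 (adjusted p = 0.078), A549 CA replicate 3 (adjusted p = 0.075), A549 CA replicate 4 (adjusted p = 0.077), A549 SP replicate 1 (adjusted p = 0.096), A549 SP replicate 3 (adjusted p = 0.14), EA.hy926 CA replicate 1 (adjusted p = 0.12), EA.hy926 CA replicate 2 (adjusted p = 0.050), EA.hy926 CA replicate 4 (adjusted p = 0.067), EA.hy926 SP replicate 1 (adjusted p = 0.12) or EA.hy926 SP replicate 2 (adjusted p = 0.14), by limma-voom (adjusted p = 0.053), or with the coculture as a block (adjusted p = 0.068). ZNF133, a KRAB gene, had log2 fold changes of -1.39, -1.24 and -1.01 in EA.hy926 cells and -0.32, -0.18 and 0.07 in A549 cells with SOANAP-SP, SOAβPIN-SP and SP. It met the count condition of EA.hy926 cells through CA libraries alone, so it had to be lower there and its fall is a description only. Its call with SP in EA.hy926 cells was lost without CA replicate 4 (adjusted p = 0.071), SP replicate 1 (adjusted p = 0.058), SP replicate 2 (adjusted p = 0.068) or SP replicate 3 (adjusted p = 0.10), on the authors' normalized values (adjusted p = 0.068), or with the replicate number as a block (adjusted p = 0.063).

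**Figure D3:**
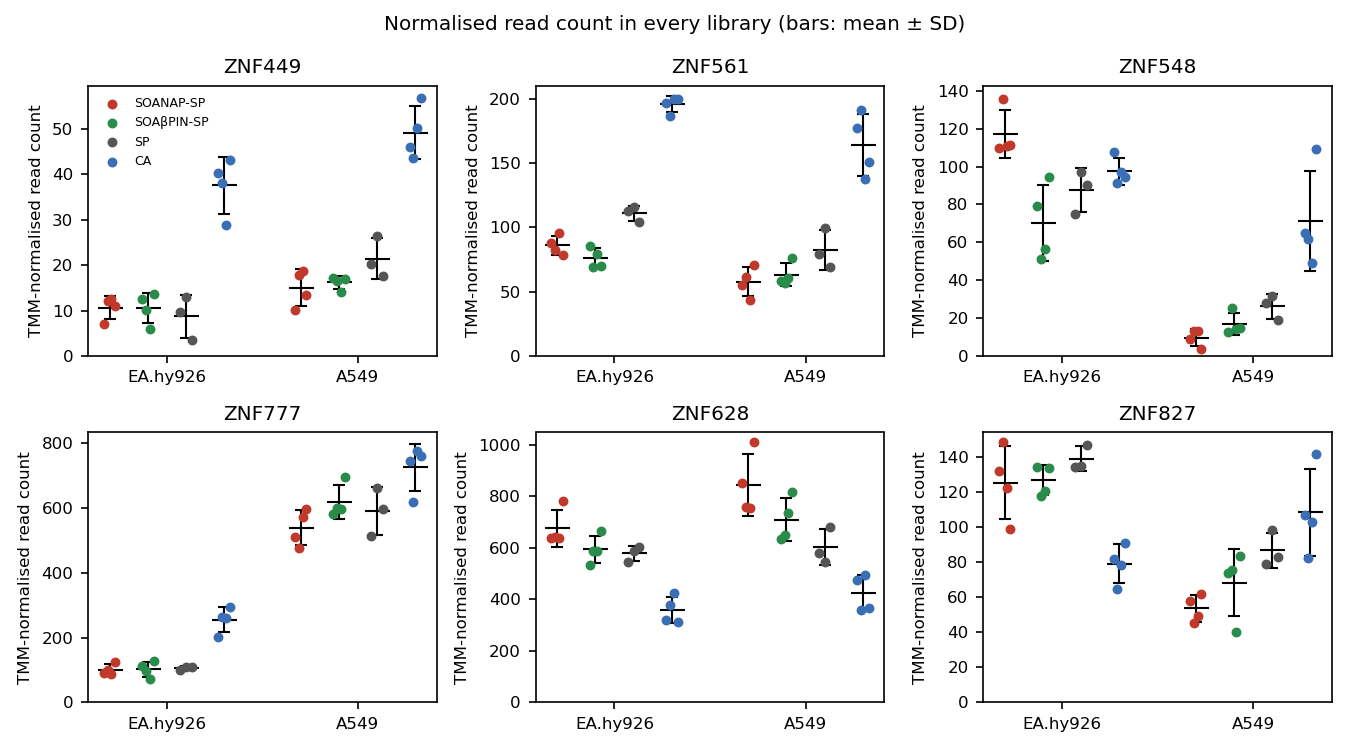
Normalised counts of 6 members in every library (points, linear axes that start at 0), by cell line and exposure, with black bars for the mean and SD of each group. ZNF449 and ZNF561 lie below CA in both lines, ZNF548 in A549 cells, ZNF777 with each aerosol in EA.hy926 cells, ZNF628 above CA in both, and ZNF827 above CA in EA.hy926 cells and below it with SOANAP-SP in A549 cells. ZNF449 met the count condition through CA libraries alone, so it had to lie below CA.

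Being called in 1 line does not show a difference between lines, so the difference itself was tested in 1 fit over all 30 libraries. With SOANAP-SP, the log2 fold change was lower in EA.hy926 cells for 9 members (4.35%, against 5.05% of the 9900 genes). It was higher there for 47 (22.7%, all genes 8.34%). With SOAβPIN-SP, it was lower for 17 members (8.21%, all genes 4.43%) and higher for 29 (14.01%, all genes 7.45%). With SP, it was lower for 4 members (1.93%, all genes 1.38%) and higher for 14 (6.76%, all genes 3.06%). Of the 41 members called lower with SOANAP-SP in A549 cells alone, 30 differed between the lines, as did 20 of 31 with SOAβPIN-SP and 9 of 24 with SP. Of the 16, 27 and 24 members lower in EA.hy926 cells alone with the same aerosols, 8, 12 and 3 differed.

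At least 1 rise was found for 21 members (10.1%, where 13.4% of the 9900 genes tested in both lines had one), of which 9 were higher in EA.hy926 cells alone, 7 in A549 cells alone, 5 in both lines, with 4 of the first group lower in A549 cells. ZNF628 (chromosome 19, 55476617 to 55484487, forward strand) alone was higher in all 6 comparisons. It had 638, 642, 638 and 784 normalised counts with SOANAP-SP, 535, 589, 589 and 665 with SOAβPIN-SP and 544, 588 and 601 with SP, against 321, 377, 423 and 313 in CA in EA.hy926 cells. It had 853, 758, 755 and 1012 normalised counts with SOANAP-SP, 635, 648, 736 and 815 with SOAβPIN-SP and 582, 544 and 679 with SP, against 476, 360.4, 496 and 368 in CA in A549 cells. Every aerosol library lay above the highest CA library of its line. Its log2 fold changes were 0.92 ± 0.10 with SOANAP-SP (adjusted p = 1.8e-06), 0.73 ± 0.10 with SOAβPIN-SP (adjusted p = 4.6e-05) and 0.69 ± 0.11 with SP (adjusted p = 0.00023) in EA.hy926 cells and 0.99 ± 0.12 with SOANAP-SP (adjusted p = 8.3e-06), 0.74 ± 0.12 with SOAβPIN-SP (adjusted p = 0.00021) and 0.50 ± 0.13 with SP (adjusted p = 0.021) in A549 cells. It was the sole member higher with SP in A549 cells, and that call was lost without CA replicate 2 (adjusted p = 0.056), CA replicate 4 (adjusted p = 0.061), SP replicate 1 (adjusted p = 0.057) or SP replicate 3 (adjusted p = 0.12), with a filter on CPM (log2 fold change 0.49), or with a filter on the mean count (log2 fold change 0.49).

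ZNF335, a component of a histone H3K4 methyltransferase complex that is needed in neural progenitors, had 303, 309, 398 and 426 normalised counts with SOANAP-SP, 417, 396, 432 and 381 with SOAβPIN-SP and 449, 358 and 349 with SP, against 219, 210.2, 231 and 139 in CA in EA.hy926 cells, all above CA. In A549 cells, it had 388, 377, 450.2 and 575 normalised counts with SOANAP-SP, 353, 321, 378 and 455 with SOAβPIN-SP and 325, 335 and 337 with SP, against 211, 218, 366 and 199.6 in CA, where 1 CA library stood apart from the other 3 and reached into the libraries of SOAβPIN-SP and SP. Its log2 fold changes were 0.84 ± 0.14 with SOANAP-SP (adjusted p = 0.00016), 1.02 ± 0.14 with SOAβPIN-SP (adjusted p = 4.0e-05) and 0.95 ± 0.15 with SP (adjusted p = 0.00023) in EA.hy926 cells and 0.86 ± 0.18 with SOANAP-SP (adjusted p = 0.0013), 0.61 ± 0.18 with SOAβPIN-SP (adjusted p = 0.017) and 0.43 ± 0.19 with SP (adjusted p = 0.18) in A549 cells. The call with SOAβPIN-SP in A549 cells was lost without CA replicate 1 (adjusted p = 0.054), CA replicate 4 (adjusted p = 0.060) or SOAβPIN-SP replicate 4 (adjusted p = 0.053). ZNF143, a transcription factor of small nuclear RNA genes and many other promoters, rose in EA.hy926 cells and averaged 267 ± 31.7 with SOANAP-SP, 276 ± 43.3 with SOAβPIN-SP and 269 ± 13.7 with SP, against 160.1 ± 22.9 in CA there (SD, n = 4, SP n = 3), with no overlap. It averaged 426 ± 43.7 with SOANAP-SP, 373 ± 47.2 with SOAβPIN-SP and 394 ± 10.4 with SP, against 355 ± 58.7 in CA in A549 cells, with overlap. The line difference was 0.71 ± 0.17 (adjusted p = 0.0047) with SOAβPIN-SP. Its exons overlap a gene with a clone-based name on the other strand.

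ZNF703, of the NET family of repressors and amplified in breast cancer, had log2 fold changes of 1.004, 0.59 and 0.60 in EA.hy926 cells and 0.58, -0.21 and 0.32 in A549 cells with SOANAP-SP, SOAβPIN-SP and SP, and passed in EA.hy926 cells with each aerosol and in A549 cells with SOANAP-SP. The A549 call was lost without CA replicate 2 (log2 fold change 0.47) or SOANAP-SP replicate 4 (log2 fold change 0.46) or with library totals as the scale (log2 fold change 0.49). ZNF653 averaged 93.1 ± 14.1 with SOANAP-SP, 75.3 ± 13.3 with SOAβPIN-SP and 74.3 ± 14.2 with SP, against 57.3 ± 8.29 in CA in EA.hy926 cells, where SOANAP-SP passed. It averaged 118 ± 19.5 with SOANAP-SP, 109.8 ± 12.7 with SOAβPIN-SP and 95.8 ± 19.5 with SP, against 77.6 ± 9.28 in CA in A549 cells, where SOANAP-SP and SOAβPIN-SP passed, and the second of these calls was lost without CA replicate 1 (adjusted p = 0.055), CA replicate 2 (adjusted p = 0.059), SOAβPIN-SP replicate 3 (log2 fold change 0.4998) or SOAβPIN-SP replicate 4 (adjusted p = 0.071) or with a filter on the mean count (log2 fold change 0.49). ZNF778, a KRAB gene, passed with SOANAP-SP and SP in EA.hy926 cells (0.71, 0.48 and 0.68 with the 3 aerosols) and with SOAβPIN-SP in A549 cells (-0.33, 0.65 and 0.44). The other rises were ZNF639, ZNF513, ZNF503 and ZNF217 in EA.hy926 cells and ZNF629, ZNF618, ZNF296, ZNF524, ZNF784, ZNF467 and ZNF277 in A549 cells.

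A higher level in EA.hy926 cells and a lower level in A549 cells was called for 4 members (1.93%, all genes 1.03%), and 0 were called the other way round (all genes 0.293%). ZNF827, which brings the NuRD complex to telomeres maintained by recombination, had 132, 149, 123 and 99.3 normalised counts with SOANAP-SP, 135, 118, 121 and 134 with SOAβPIN-SP and 135, 135 and 147 with SP, against 82.1, 64.7, 78.8 and 91.3 in CA in EA.hy926 cells, all above CA. In A549 cells, it had 58.2, 45.2, 49.4 and 62 normalised counts with SOANAP-SP, 74.2, 75.6, 40.4 and 83.4 with SOAβPIN-SP and 79.1, 98.3 and 83 with SP, against 107, 82.3, 103 and 142 in CA, below CA with SOANAP-SP and overlapping with the others. Its line difference was 1.68 ± 0.24 (adjusted p = 1.1e-05) with SOANAP-SP, 1.34 ± 0.24 (adjusted p = 0.00020) with SOAβPIN-SP and 1.14 ± 0.26 (adjusted p = 0.0066) with SP. The A549 call with SOAβPIN-SP was lost without CA replicate 4 (adjusted p = 0.092) or SOAβPIN-SP replicate 3 (adjusted p = 0.059). ZNF473, a U7 snRNP-bound factor of histone mRNA 3′ end processing, averaged 169 ± 10.1 with SOANAP-SP, 128 ± 15.2 with SOAβPIN-SP and 161 ± 9.21 with SP, against 115 ± 10.6 in CA in EA.hy926 cells. It averaged 121 ± 22.7 with SOANAP-SP, 101 ± 11.9 with SOAβPIN-SP and 115 ± 6.17 with SP, against 177 ± 9.27 in CA in A549 cells, where all aerosol libraries were below CA. Its line differences were 1.11 ± 0.17 (adjusted p = 1.6e-05), 0.95 ± 0.17 (adjusted p = 0.00017) and 1.11 ± 0.18 (adjusted p = 0.00025) with the same aerosols. Its exons overlap VRK3 on the other strand. With SOANAP-SP, its calls slipped under the fold limit, in EA.hy926 cells without CA replicate 4 (log2 fold change 0.4966) and in A549 cells without SOANAP-SP replicate 1 (log2 fold change -0.48) or SOANAP-SP replicate 2 (log2 fold change -0.48).

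ZNF222, a KRAB gene, had log2 fold changes of 0.57, 0.17 and 0.23 in EA.hy926 cells and -0.82, -0.74 and -0.62 in A549 cells with SOANAP-SP, SOAβPIN-SP and SP. The single EA.hy926 call, with SOANAP-SP, was lost without CA replicate 1 (adjusted p = 0.080), CA replicate 3 (adjusted p = 0.051), SOANAP-SP replicate 2 (adjusted p = 0.072) or SOANAP-SP replicate 4 (adjusted p = 0.053), and the A549 call with SOAβPIN-SP without CA replicate 4 (adjusted p = 0.064). ZNF597, from an imprinted locus on chromosome 16, had 0.57, -0.02 and 0.16 in EA.hy926 cells and -0.91, -1.24 and -0.71 in A549 cells. In EA.hy926 cells its call with SOANAP-SP slipped under the fold limit without SOANAP-SP replicate 2 (log2 fold change 0.4975). The line difference of ZNF597 was 1.47 ± 0.23 (adjusted p = 3.0e-05) with SOANAP-SP, and that of ZNF222 was 1.39 ± 0.27 (adjusted p = 0.00038).

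By structure, the KRAB members carried more of the lower calls. A KRAB A box was found in 88 of the 207 proteins (a match at 10 or more of 13 conserved positions). Of those without one, 107 had at least 2 finger matches and 12 had fewer than 2. In EA.hy926 cells, 41 of the 88 KRAB members were lower with SOANAP-SP (46.6%), 32 with SOAβPIN-SP (36.4%) and 21 with SP (23.9%). Of the 107 others with fingers, 27, 25 and 19 were (25.2%, 23.4% and 17.8%). In A549 cells, 59 KRAB members were lower with SOANAP-SP (67.0%), 36 with SOAβPIN-SP (40.9%) and 24 with SP (27.3%). Of the 107, 35, 25 and 16 were (32.7%, 23.4% and 15.0%). Only 2 KRAB members were higher in any comparison, ZNF778 and ZNF222, where 17 of the 107 were. The KRAB members were also at lower levels. Their median was 97.9 normalised counts in EA.hy926 and 90.7 in A549 cells, against 271 and 220 for the 107. By GC content of the transcript, 40, 30 and 18 of the 88 lay in the low, middle and high tertile of members. The part of level or GC content in this contrast was not tested.

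By position, chromosome 19 holds 67 members. In EA.hy926 cells, 23, 19 and 14 of the 67 were lower with SOANAP-SP, SOAβPIN-SP and SP, and in A549 cells 45, 34 and 26 were. Of the 140 members elsewhere, 47, 39 and 26 were lower in EA.hy926 cells and 50, 28 and 14 in A549 cells. Among the 41 KRAB members of chromosome 19, 18 were lower with SOANAP-SP in EA.hy926 cells (43.9%, median log2 fold change -0.42) and 34 in A549 cells (82.9%, median -1.12), whereas of the 47 KRAB members elsewhere 23 were lower in EA.hy926 cells (median -0.50) and 25 in A549 cells (median -0.60). The tested line difference was higher in EA.hy926 cells for 21, 13 and 5 of the 41 with SOANAP-SP, SOAβPIN-SP and SP, and lower for 0 with each of them.

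**Figure D4:**
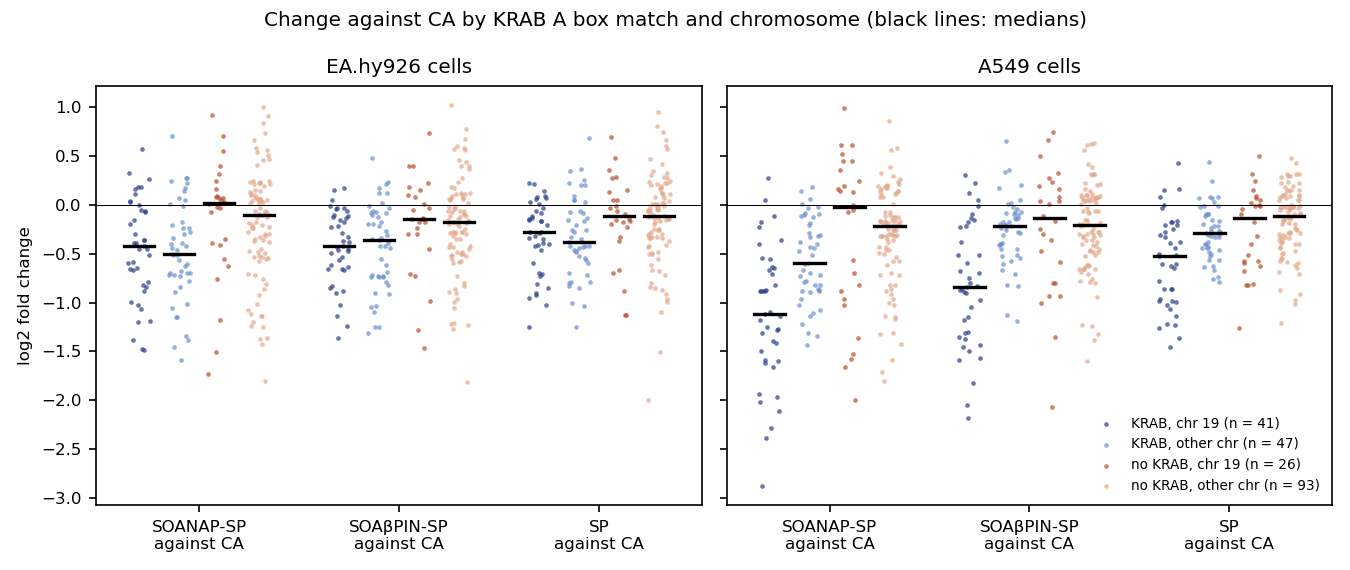
Log2 fold change against CA of each member (points) for each aerosol in EA.hy926 and A549 cells, in 4 classes by KRAB A box match and chromosome 19, with black lines for the class medians. With SOANAP-SP, the median of the 41 KRAB members of chromosome 19 is -0.42 in EA.hy926 cells and -1.12 in A549 cells.

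Neighbouring members (no gap over 500 kb, at least 5 members) formed 8 arrays with 75 members. The largest, at the end of the long arm (chromosome 19, 57191500 to 58481230), holds 21 members, of which 18 are KRAB genes and among which are ZNF264, ZNF548, ZNF773, ZNF549, ZNF134, ZNF551, ZNF329 and ZNF274. In EA.hy926 cells, 8, 7 and 3 of the 21 were lower with SOANAP-SP, SOAβPIN-SP and SP, with medians of -0.41, -0.37 and -0.27. In A549 cells, 17, 14 and 11 were lower, with medians of -1.28, -1.01 and -0.81, and the line difference was called for 14, 8 and 4. ZNF749, ZNF587, ZNF584 and ZNF446 of this array were lower in no comparison of A549 cells.

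**Figure D5:**
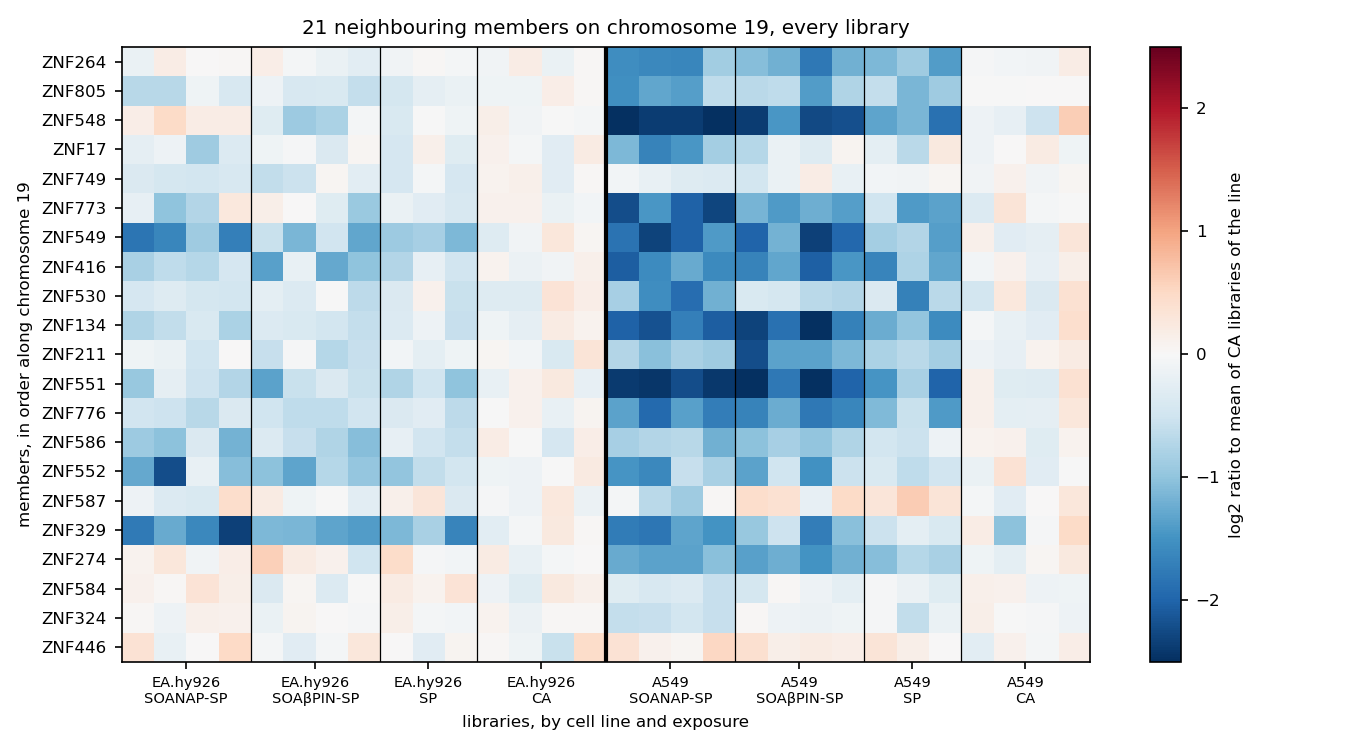
Log2 ratio of each library to the CA mean of its line (normalised counts plus 1) for the 21 members of the chromosome 19 array, in gene order, with the libraries grouped by line and exposure and the colour scale cut off at both ends. In A549 cells, 17 of the 21 were called lower with SOANAP-SP, and in EA.hy926 cells 8 were.

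Other arrays differed. At chromosome 19, 55476617 to 56626481, where 1 of 10 members is a KRAB gene and where ZNF628 lies, 1 member was lower with each aerosol in EA.hy926 cells, and 2, 1 and 1 were in A549 cells. At chromosome 19, 9140397 to 9675100, with ZNF561, 3, 2 and 1 of 6 members were lower in EA.hy926 cells and 6, 4 and 4 in A549 cells. At chromosome 7, 149069641 to 149773588, with ZNF777 and ZNF398, 5, 3 and 3 of 8 members were lower in EA.hy926 cells and 3, 0 and 0 in A549 cells. There the line difference was lower in EA.hy926 cells for 1, 4 and 1 members. Members of an array share position and much of their sequence, so uniquely mapped reads may undercount the closest copies.

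Features of the transcripts that the rule did not use were set beside the calls. The median GC content of the canonical transcript was 44.6% in the 119 members lower in any comparison and 55.2% in the other 88, the median 3′ UTR was 1983 and 1105 bases, and the median number of finger matches was 10 and 7. In A549 cells with SOANAP-SP, 62.3%, 59.4% and 15.9% of members in the low, middle and high tertile of GC content were lower, where 12.4%, 12.02% and 7.06% of all genes in the same GC ranges were. In EA.hy926 cells with SOANAP-SP, the members were at 43.5%, 31.9% and 26.1% and all genes at 7.04%, 8.82% and 7.98%. With SOAβPIN-SP, the members were at 37.7%, 23.2% and 23.2% in EA.hy926 cells (all genes 4.99%, 5.87% and 6.23%) and 46.4%, 37.7% and 5.797% in A549 cells (all genes 9.29%, 8.57% and 6.39%). With SP, they were at 18.8%, 15.9% and 23.2% in EA.hy926 cells (all genes 4.23%, 4.95% and 5.04%) and 28.99%, 21.7% and 7.25% in A549 cells (all genes 3.97%, 4.34% and 2.69%). In the high tertile of A549 cells with SOAβPIN-SP, members were thus no more often lower than all genes. The share of lower members was thus smallest in the high tertile in A549 cells with each aerosol, but with SP in EA.hy926 cells it was largest there. The part of GC content in the calls was not tested.

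The aerosols were then set against each other. No experiment held different aerosols, so aerosol and experiment cannot be told apart here. Dose differed too. At the dilution used, the paper estimates the most deposited mass per area with SOANAP-SP, less with SOAβPIN-SP and the least with SP. The kind of aerosol and the deposited dose thus cannot be told apart either. In A549 cells, 22 members were lower and 6 higher with SOANAP-SP than with SOAβPIN-SP (all genes either way 7.48%), and 26 were lower and 3 higher with SOANAP-SP than with SP (all genes 7.13%). The second count fell to 5 members without SP replicate 1 and to 13 without SP replicate 2. With library totals as the scale, 46 members were called between SOANAP-SP and SOAβPIN-SP and 55 between SOANAP-SP and SP. SOAβPIN-SP and SP differed for 0 members in A549 cells by edgeR (all genes 0.0679%). There, 33 members had an unadjusted p under 0.05, limma-voom called 0, DESeq2 called 4, and the fit with the replicate number as a block called 3. In EA.hy926 cells, 2 members were lower and 2 higher with SOANAP-SP than with SOAβPIN-SP (all genes 0.598%), 3 were lower with SOANAP-SP than with SP (all genes 0.794%, and 5 members were called with library totals as the scale), and 0 differed between SOAβPIN-SP and SP (all genes 0%) by edgeR, limma-voom or DESeq2, with 11 at an unadjusted p under 0.05. The count of 4 was 1 without SOAβPIN-SP replicate 2 and 2 without SOAβPIN-SP replicate 3, SOANAP-SP replicate 1 or SOANAP-SP replicate 2, and the count of 3 was 0 without any 1 SP library, 0 without SOANAP-SP replicate 2 or 4, 1 without SOANAP-SP replicate 1 and 6 without SOANAP-SP replicate 3.

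Against SOAβPIN-SP in A549 cells, ZNF675, a KRAB gene whose product binds TRAF6, differed by -1.597 ± 0.39 (adjusted p = 0.0089). It had 11, 7.26, 4.702 and 1.91 normalised counts with SOANAP-SP, 18.6, 20.2, 13.1 and 23.9 with SOAβPIN-SP and 16, 16.6 and 12.6 with SP, against 40.03, 29.3, 19.9 and 20.4 in CA, with SOANAP-SP lowest. In EA.hy926 cells, it was below CA in every aerosol library, with log2 fold changes of -1.47, -1.14 and -1.25 against CA. ZNF398 differed by -1.38 ± 0.16 (adjusted p = 4.4e-05) and ZNF766 by -1.08 ± 0.23 (adjusted p = 0.0048) in the same comparison, and ZNF398 was lower than CA with each aerosol in EA.hy926 cells (-1.14, -0.90 and -0.79). Against SP in A549 cells, ZNF548 differed by -1.42 ± 0.40 (adjusted p = 0.026), ZNF329 by -1.26 ± 0.36 (adjusted p = 0.027) and ZNF510 by -1.196 ± 0.31 (adjusted p = 0.018). These were lost without SOANAP-SP replicate 4 (adjusted p = 0.071), SP replicate 1 (adjusted p = 0.12) or SP replicate 2 (adjusted p = 0.10) for ZNF548, without SOANAP-SP replicate 1 (adjusted p = 0.052), SOANAP-SP replicate 2 (adjusted p = 0.070), SP replicate 1 (adjusted p = 0.081) or SP replicate 2 (adjusted p = 0.090) for ZNF329 and without SP replicate 1 (adjusted p = 0.066) for ZNF510. Against CA, ZNF329 fell with each aerosol in EA.hy926 cells (-1.73, -1.28 and -1.13) and with SOANAP-SP and SOAβPIN-SP in A549 cells (-1.66, -1.01 and -0.40 with the 3 aerosols). The call with SOAβPIN-SP in A549 cells was lost without CA replicate 4 (adjusted p = 0.079) or SOAβPIN-SP replicate 3 (adjusted p = 0.053). ZNF510 was lower than CA with SOANAP-SP in A549 cells alone (-1.31, -0.29 and -0.11).

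Between SOANAP-SP and SOAβPIN-SP in EA.hy926 cells, ZNF548 differed by 0.73 ± 0.17 (adjusted p = 0.040), ZNF697 by -0.64 ± 0.12 (adjusted p = 0.012) and ZNF597 by 0.58 ± 0.11 (adjusted p = 0.011). The call of ZNF548 was lost without SOANAP-SP replicate 1 (adjusted p = 0.075), SOANAP-SP replicate 2 (adjusted p = 0.12), SOANAP-SP replicate 3 (adjusted p = 0.067), SOANAP-SP replicate 4 (adjusted p = 0.067), SOAβPIN-SP replicate 2 (adjusted p = 0.14) or SOAβPIN-SP replicate 3 (adjusted p = 0.14) or in a fit of the compared groups alone (adjusted p = 0.054), and that of ZNF597 without SOAβPIN-SP replicate 2 (adjusted p = 0.057). Between SOANAP-SP and SP, ZNF500 differed by -0.78 ± 0.18 (adjusted p = 0.038), ZNF488 by -0.59 ± 0.14 (adjusted p = 0.039) and ZNF697 by -0.53 ± 0.13 (adjusted p = 0.048). The call of ZNF500 was lost without SOANAP-SP replicate 1 (adjusted p = 0.13), SOANAP-SP replicate 2 (adjusted p = 0.076), SOANAP-SP replicate 4 (adjusted p = 0.089), SP replicate 1 (adjusted p = 0.14), SP replicate 2 (adjusted p = 0.14) or SP replicate 3 (adjusted p = 0.070) or with the replicate number as a block (adjusted p = 0.056). The call of ZNF488 was lost without SOANAP-SP replicate 2 (adjusted p = 0.094), SOANAP-SP replicate 4 (adjusted p = 0.096), SP replicate 1 (adjusted p = 0.20), SP replicate 2 (adjusted p = 0.097) or SP replicate 3 (adjusted p = 0.076). The call of ZNF697 was lost without SOANAP-SP replicate 1 (adjusted p = 0.13), SOANAP-SP replicate 2 (adjusted p = 0.081), SOANAP-SP replicate 4 (adjusted p = 0.12), SP replicate 1 (adjusted p = 0.16), SP replicate 2 (adjusted p = 0.16) or SP replicate 3 (adjusted p = 0.083), on the authors' normalized values (adjusted p = 0.052), or with the replicate number as a block (log2 fold change -0.49). Against CA in EA.hy926 cells, ZNF488, which in mouse acts in oligodendrocyte differentiation, fell with each aerosol (-1.43, -1.22 and -0.84), and ZNF500 with SOANAP-SP (-0.92).

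Of a list of 26 ZNF genes with a described role, 20 were members. In EA.hy926 cells, 2 of the 20 were lower and 4 higher with SOANAP-SP (all genes 8.57% and 6.26%), 1 lower and 4 higher with SOAβPIN-SP (all genes 6.14% and 5.04%) and 0 lower and 3 higher with SP (all genes 5.12% and 4.72%). In A549 cells, 3 were lower and 2 higher with SOANAP-SP (all genes 11.3% and 6.92%), 4 lower and 1 higher with SOAβPIN-SP (all genes 8.93% and 4.31%) and 2 lower and 0 higher with SP (all genes 3.97% and 2.02%). ZNF24, a SCAN repressor of VEGFA, averaged 434 ± 37.9 with SOANAP-SP, 439.7 ± 23.9 with SOAβPIN-SP and 467 ± 48.7 with SP, against 626 ± 32.2 in CA in EA.hy926 cells. It averaged 618 ± 45 with SOANAP-SP, 541 ± 68 with SOAβPIN-SP and 646 ± 42.2 with SP, against 944 ± 43.6 in CA in A549 cells. Every aerosol library of each line lay below CA, and its log2 fold changes were -0.53, -0.51 and -0.42 in EA.hy926 cells and -0.61, -0.80 and -0.55 in A549 cells. In EA.hy926 cells, its calls slipped under the fold limit, with SOANAP-SP without CA replicate 3 (log2 fold change -0.49) or SOANAP-SP replicate 4 (log2 fold change -0.49) and with SOAβPIN-SP without CA replicate 3 (log2 fold change -0.48), SOAβPIN-SP replicate 1 (log2 fold change -0.49) or SOAβPIN-SP replicate 4 (log2 fold change -0.49), on the authors' normalized values (log2 fold change -0.4959), or with no filter (log2 fold change -0.49). ZNF281, a regulator of pluripotency and epithelial-mesenchymal transition, had log2 fold changes of 0.41, 0.40 and 0.35 in EA.hy926 cells and -0.49, -0.63 and -0.28 in A549 cells, with a line difference of 1.04 ± 0.15 (adjusted p = 9.5e-06) with SOAβPIN-SP. ZNF217, an oncogene of breast cancer, was higher in EA.hy926 cells with SOANAP-SP and SOAβPIN-SP (0.59, 0.56 and 0.30 with the 3 aerosols) and not called in A549 cells (-0.18, 0.30 and -0.11). Those calls slipped under the fold limit, with SOANAP-SP without CA replicate 4 (log2 fold change 0.48) and with SOAβPIN-SP without CA replicate 1 (log2 fold change 0.49) or CA replicate 4 (log2 fold change 0.46).

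ZNF395, a hypoxia-induced factor, was lower in A549 cells with SOANAP-SP (-0.82 ± 0.13, adjusted p = 9.1e-05) and had 0.03 in EA.hy926 cells. ZNF131, a BTB zinc finger protein, was lower in A549 cells with SOAβPIN-SP (-0.52), a call that slipped under the fold limit without CA replicate 4 (log2 fold change -0.49) or SOAβPIN-SP replicate 3 (log2 fold change -0.44) or with library totals as the scale (log2 fold change -0.49). ZNF652, a repressor that works with CBFA2T3, was lower in EA.hy926 cells with SOANAP-SP (-0.58), a call lost without CA replicate 1 (adjusted p = 0.14), CA replicate 3 (adjusted p = 0.068), CA replicate 4 (adjusted p = 0.058), SOANAP-SP replicate 1 (adjusted p = 0.11), SOANAP-SP replicate 2 (adjusted p = 0.060) or SOANAP-SP replicate 3 (adjusted p = 0.086), on the authors' normalized values (adjusted p = 0.051), with no filter (adjusted p = 0.052), or with the replicate number as a block (adjusted p = 0.056). ZNF148 differed between the lines with SOANAP-SP by 0.52 ± 0.12 (adjusted p = 0.0023) but was called in neither, and the difference slipped under the fold limit without A549 CA replicate 2 (log2 fold change 0.47), EA.hy926 CA replicate 1 (log2 fold change 0.4973) or EA.hy926 SOANAP-SP replicate 4 (log2 fold change 0.4972). Called in no comparison with CA were ZNF263, ZNF638 (which silences unintegrated retroviral DNA), ZNF451 (a SUMO ligase), ZNF384, ZNF185 (an actin-associated LIM protein), ZNF148, ZNF202, ZNF598 (the ubiquitin ligase of collided ribosomes), ZNF692 and ZNF622 (a factor of ribosome assembly).

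Members differed widely in level. Over all libraries of a line, ZNF622 stood at 1141 normalised counts per kb in EA.hy926 cells and 656 in A549 cells, ZNF787 at 657 and 526, and ZNF703 at 651 and 607, where the median member was at 27.5 and 22.5. ZNF622 had log2 fold changes of -0.09, -0.25 and -0.17 in EA.hy926 cells and -0.11, -0.27 and -0.10 in A549 cells, and ZNF787 of 0.05, 0.01 and -0.03 and -0.07, -0.17 and -0.17, none called. Among those nearest the count condition, ZNF627 was lower with SOANAP-SP in both lines (-0.88 in EA.hy926 and -1.27 in A549), and the EA.hy926 call was lost without CA replicate 1 (adjusted p = 0.12), CA replicate 3 (adjusted p = 0.066), SOANAP-SP replicate 1 (adjusted p = 0.11) or SOANAP-SP replicate 2 (adjusted p = 0.076) or in a fit of the compared groups alone (adjusted p = 0.052). ZNF248 was lower with SOANAP-SP and SOAβPIN-SP in both lines (-0.90, -1.04 and -0.83 in EA.hy926 and -0.51, -0.57 and -0.27 in A549 with the 3 aerosols). Each of its 4 calls was lost without 1 library or another, in EA.hy926 cells with SOANAP-SP without CA replicate 3 (adjusted p = 0.085), CA replicate 4 (adjusted p = 0.096), SOANAP-SP replicate 1 (adjusted p = 0.083), SOANAP-SP replicate 2 (adjusted p = 0.069) or SOANAP-SP replicate 4 (adjusted p = 0.056), on the authors' normalized values (adjusted p = 0.059), or with the experiment as a random block (adjusted p = 0.050) and with SOAβPIN-SP without CA replicate 3 (adjusted p = 0.060), CA replicate 4 (adjusted p = 0.069), SOAβPIN-SP replicate 2 (adjusted p = 0.072) or SOAβPIN-SP replicate 4 (adjusted p = 0.075) or in a fit of the compared groups alone (adjusted p = 0.058), and in A549 cells with SOANAP-SP without CA replicate 3 (log2 fold change -0.49), CA replicate 4 (log2 fold change -0.45), SOANAP-SP replicate 2 (log2 fold change -0.49), SOANAP-SP replicate 3 (log2 fold change -0.4950) or SOANAP-SP replicate 4 (log2 fold change -0.4993), on the authors' normalized values (log2 fold change -0.49), with the experiment as a random block (log2 fold change -0.4961), or with no filter (log2 fold change -0.49) and with SOAβPIN-SP without SOAβPIN-SP replicate 3 (log2 fold change -0.49). ZNF251 was lower with SOANAP-SP and SOAβPIN-SP in A549 cells alone (-0.70, -0.83 and -0.23, against 0.07, 0.18 and 0.37 in EA.hy926 cells).

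The co-repressor machinery of KRAB proteins, a list of 16 genes all tested in both lines, had at most 1 gene called in a comparison, where 8.57% of all genes were lower with SOANAP-SP in EA.hy926 cells and 11.3% in A549 cells. NSD1, a histone H3K36 methyltransferase, was lower in EA.hy926 cells (log2 fold change -1.08 with SOANAP-SP, -0.66 with SOAβPIN-SP and -0.61 with SP) and with SOANAP-SP in A549 cells (-0.80), and CHD4, the remodeller of NuRD, was higher with SOAβPIN-SP in A549 cells (0.71). None of the other 14 was called, but some passed the adjusted p limit by edgeR with a log2 fold change under 0.5 in size. SETDB1 had -0.43, -0.40 and -0.42 with SOANAP-SP, SOAβPIN-SP and SP in EA.hy926 cells (adjusted p = 0.018, 0.035 and 0.047). In A549 cells, it had -0.37, -0.36 and -0.18 (adjusted p = 0.016, 0.026 and 0.40). TRIM28 had 0.43, 0.36 and 0.45 in A549 cells (adjusted p = 0.0033, 0.016 and 0.013). In EA.hy926 cells, it had 0.22, 0.01 and 0.02 (adjusted p = 0.048, 0.97 and 0.89). CBX5 had -0.48 with SOANAP-SP and -0.38 with SP in EA.hy926 cells (adjusted p = 0.00039 and 0.0091), and PPHLN1 0.32 with SOANAP-SP (adjusted p = 0.010). With SOANAP-SP in A549 cells, ATRX had -0.37, TASOR -0.34, CBX5 -0.34 and CBX3 -0.32 (adjusted p = 0.019, 0.016, 0.029 and 0.0083). With SOAβPIN-SP there, TASOR had -0.31 and UHRF1 0.44 (adjusted p = 0.037 and 0.039). C2H2 genes under other symbols were lower too. With SOANAP-SP, 3 of 7 ZFP, 3 of 5 ZKSCAN, 3 of 7 ZSCAN and 13 of 33 ZBTB genes tested were lower in EA.hy926 cells, and 6 of 12, 3 of 5, 7 of 11 and 10 of 29 in A549 cells.

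In 3 experiments an aerosol and CA were run together, 1 library each (experiment 42 with SOANAP-SP, 38 with SOAβPIN-SP and 53 with SP). Members called lower also had a lower normalised count in that pair for 70 of 70, 58 of 58 and 40 of 40 in EA.hy926 cells and for 95 of 95, 60 of 62 and 40 of 40 in A549 cells with SOANAP-SP, SOAβPIN-SP and SP. These libraries are among those of the main test, so the counts describe where the calls come from.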

How the data were processed

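Poly-A RNA of 15 libraries of EA.hy926 and 15 of A549 cells was sequenced. Per the methods of the study, the authors trimmed reads with cutadapt, aligned them with STAR to GRCh38 with Ensembl genes, removed duplicates by molecular identifier and counted uniquely mapped reads with HTSeq in intersection-strict mode. The submitters' processing notes list DESeq2 1.26.0, STAR 2.7.3a and bcl2fastq 2.20.0.422 as tools, and as build a mouse one. Strand use in counting is not stated. The deposited raw counts per gene carry no normalization and were the basis of every test. The signal values deposited by the authors are the same counts divided by 1 DESeq2 size factor per library and served as an alternative. Counting covers uniquely mapped reads, so near-identical copies may be undercounted, which was not measured here.

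The count condition of the members (30 in 3 libraries of a line) was applied to all genes and left 10709 genes in EA.hy926 and 11775 in A549, 9900 of them in both. edgeR 4.0.16 (TMM, robust quasi-likelihood fit, R 4.3.3) was fitted to the 15 libraries of a line, or to all 30 for the line difference, (aerosol minus CA in EA.hy926) minus (aerosol minus CA in A549), with Benjamini-Hochberg adjustment over all genes tested. Calls took an adjusted p of at most 0.05 and a log2 fold change past 0.5 in either direction. Standard errors are the log2 fold change over the root of the F statistic. Normalised counts are counts scaled to the mean effective library of the line. The script was tested on simulated data with known changes. Limma 3.58.1, DESeq2 1.42.0, other scalings and filters, replicate blocks and leaving out each library were the alternatives. The authors fitted a sequencing batch that the labels do not give, so no batch term was used. Replicates are separate exposure experiments, and the same-numbered libraries of both lines come from 1 coculture experiment per the labels, so the fit for the line difference was repeated with the coculture as a block. Across exposures the numbers do not mark shared experiments. With r over 0.1 asked of every pair, same-numbered samples deviated together for SOAβPIN-SP and SP in A549 cells alone (r of 0.26, 0.299 and 0.395), where the blocked count stands beside the main one.

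Domains were matched in the translated canonical coding sequences of GENCODE 44 (GRCh38), where all 207 members were found. Promoters are RefSeq sequences (GRCh38.p14), found for 177 members. Named are the members with the largest mean fall among those lower in all 6 comparisons (8) and among those lower with at least 2 aerosols in 1 line and called in no comparison of the other (4 each), the 6 with the most higher calls, all 4 with opposite calls, the 4 with the largest called line difference per aerosol, the 3 with the largest difference per pair of aerosols, the 3 highest per kb, those nearest the count condition, and the 20 members of a list of described roles. The members, lists and tests were chosen with earlier results of these data known.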

Additional observations from a re-analysis of the deposited data

Results flagged for a closer look

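Over the 324 groups of 4 libraries of the 54 named members, 27 had a highest or lowest library that stood apart from the other 3 by Dixon's criterion. Chance flags about 1 in 20 such groups.

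In EA.hy926 cells, the values that stood apart with SOANAP-SP were 136 normalised counts of ZNF548 in replicate 2 (next 111), 24.2 normalised counts of ZNF549 in replicate 3 (next 13.9), 784 normalised counts of ZNF628 in replicate 4 (next 642) and 2577 normalised counts of ZNF787 in replicate 1 (next 2451). The values that stood apart with SOAβPIN-SP were 20.3 normalised counts of ZNF133 in replicate 1 (next 14.5), 1679 normalised counts of ZNF703 in replicate 1 (next 2279), 79.1 normalised counts of ZNF766 in replicate 1 (next 39) and 2221 normalised counts of ZNF787 in replicate 1 (next 2481). The values that stood apart in CA were 1795 normalised counts of ZNF703 in replicate 3 (next 1364) and 2567 normalised counts of ZNF787 in replicate 3 (next 2354).

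In A549 cells, the values that stood apart with SOANAP-SP were 245 normalised counts of ZNF148 in replicate 2 (next 224), 66.2 normalised counts of ZNF248 in replicate 1 (next 60.1), 129.8 normalised counts of ZNF264 in replicate 4 (next 80.2), 578 normalised counts of ZNF384 in replicate 2 (next 683), 64.6 normalised counts of ZNF551 in replicate 3 (next 57.2) and 58.8 normalised counts of ZNF775 in replicate 3 (next 75.2). The values that stood apart with SOAβPIN-SP were 307 normalised counts of ZNF319 in replicate 4 (next 222), 486 normalised counts of ZNF384 in replicate 3 (next 618), 25.2 normalised counts of ZNF548 in replicate 2 (next 14.7), 85.7 normalised counts of ZNF692 in replicate 4 (next 55.6), 82.8 normalised counts of ZNF775 in replicate 1 (next 56.2) and 694 normalised counts of ZNF777 in replicate 4 (next 598). The values that stood apart in CA were 355 normalised counts of ZNF131 in replicate 1 (next 419), 47.3 normalised counts of ZNF133 in replicate 2 (next 42.6), 366 normalised counts of ZNF335 in replicate 3 (next 218), 78.4 normalised counts of ZNF500 in replicate 3 (next 45) and 60.5 normalised counts of ZNF692 in replicate 2 (next 91.1).

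The log2 fold change against CA differed between the lines (EA.hy926 minus A549) by edgeR's quasi-likelihood test of the difference itself, with Benjamini-Hochberg adjustment, in 53 values of the named members, of which 42 were higher and 11 lower in EA.hy926 cells. With SOANAP-SP, 22 differences were called, 3.14 for ZNF548 (adjusted p = 2.6e-07), 1.801 for ZNF551 (adjusted p = 0.00016), 1.68 for ZNF827 (adjusted p = 1.1e-05), 1.65 for ZNF773 (adjusted p = 0.0022), 1.47 for ZNF597 (adjusted p = 3.0e-05), 1.41 for ZNF264 (adjusted p = 1.6e-05), 1.39 for ZNF222 (adjusted p = 0.00038), 1.37 for ZNF134 (adjusted p = 9.5e-05), 1.36 for ZNF274 (adjusted p = 7.3e-05), 1.297 for ZNF510 (adjusted p = 0.0079), 1.22 for ZNF614 (adjusted p = 0.0082), 1.12 for ZNF697 (adjusted p = 0.0022), 1.11 for ZNF473 (adjusted p = 1.6e-05), 1.03 for ZNF778 (adjusted p = 0.00067), 0.89 for ZNF281 (adjusted p = 6.4e-05), 0.85 for ZNF395 (adjusted p = 0.0079), 0.76 for ZNF217 (adjusted p = 0.0028), 0.52 for ZNF148 (adjusted p = 0.0023), -0.92 for ZNF777 (adjusted p = 0.00056), -1.13 for ZNF488 (adjusted p = 0.0014), -1.45 for ZNF775 (adjusted p = 0.00063) and -1.52 for ZNF589 (adjusted p = 0.0011). With SOAβPIN-SP, 20 differences were called, 1.63 for ZNF134 (adjusted p = 1.0e-05), 1.58 for ZNF548 (adjusted p = 0.0013), 1.53 for ZNF551 (adjusted p = 0.00096), 1.47 for ZNF274 (adjusted p = 2.9e-05), 1.34 for ZNF827 (adjusted p = 0.00020), 1.24 for ZNF264 (adjusted p = 9.7e-05), 1.21 for ZNF597 (adjusted p = 0.00050), 1.14 for ZNF773 (adjusted p = 0.024), 1.04 for ZNF281 (adjusted p = 9.5e-06), 1.02 for ZNF251 (adjusted p = 0.047), 0.95 for ZNF473 (adjusted p = 0.00017), 0.92 for ZNF222 (adjusted p = 0.018), 0.82 for ZNF697 (adjusted p = 0.012), 0.80 for ZNF703 (adjusted p = 0.014), 0.71 for ZNF143 (adjusted p = 0.0047), -0.80 for ZNF500 (adjusted p = 0.041), -0.85 for ZNF398 (adjusted p = 0.012), -1.02 for ZNF589 (adjusted p = 0.027), -1.08 for ZNF777 (adjusted p = 9.7e-05) and -1.14 for ZNF775 (adjusted p = 0.0077). With SP, 11 differences were called, 1.31 for ZNF548 (adjusted p = 0.026), 1.14 for ZNF827 (adjusted p = 0.0066), 1.11 for ZNF264 (adjusted p = 0.0029), 1.11 for ZNF473 (adjusted p = 0.00025), 1.01 for ZNF697 (adjusted p = 0.020), 1.01 for ZNF274 (adjusted p = 0.012), 0.94 for ZNF134 (adjusted p = 0.021), 0.87 for ZNF597 (adjusted p = 0.038), 0.64 for ZNF281 (adjusted p = 0.015), -0.95 for ZNF777 (adjusted p = 0.0031) and -1.05 for ZNF775 (adjusted p = 0.049).

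The difference of ZNF148 with SOANAP-SP was lost without A549 CA replicate 2 (log2 fold change 0.47), EA.hy926 CA replicate 1 (log2 fold change 0.4973) or EA.hy926 SOANAP-SP replicate 4 (log2 fold change 0.4972). The difference of ZNF222 with SOAβPIN-SP was lost without A549 CA replicate 4 (adjusted p = 0.062) or EA.hy926 SOAβPIN-SP replicate 1 (adjusted p = 0.061). The difference of ZNF251 with SOAβPIN-SP was lost without A549 CA replicate 1, A549 CA replicate 3, A549 CA replicate 4, A549 SOAβPIN-SP replicate 1, A549 SOAβPIN-SP replicate 2, A549 SOAβPIN-SP replicate 3, A549 SOAβPIN-SP replicate 4, EA.hy926 CA replicate 1, EA.hy926 CA replicate 2, EA.hy926 CA replicate 4, EA.hy926 SOAβPIN-SP replicate 2 or EA.hy926 SOAβPIN-SP replicate 4, or by limma-voom (adjusted p between 0.050 and 0.16). The difference of ZNF500 with SOAβPIN-SP was lost without A549 CA replicate 1, A549 CA replicate 2, A549 CA replicate 4, A549 SOAβPIN-SP replicate 1, A549 SOAβPIN-SP replicate 2, A549 SOAβPIN-SP replicate 3, EA.hy926 CA replicate 1, EA.hy926 CA replicate 3, EA.hy926 SOAβPIN-SP replicate 1 or EA.hy926 SOAβPIN-SP replicate 3 (adjusted p between 0.055 and 0.10). The difference of ZNF589 with SOAβPIN-SP was lost without A549 CA replicate 1, A549 SOAβPIN-SP replicate 4, EA.hy926 CA replicate 3 or EA.hy926 SOAβPIN-SP replicate 1 (adjusted p between 0.052 and 0.094). The difference of ZNF773 with SOAβPIN-SP was lost without A549 CA replicate 2 (adjusted p = 0.054), EA.hy926 SOAβPIN-SP replicate 1 (adjusted p = 0.062) or EA.hy926 SOAβPIN-SP replicate 2 (adjusted p = 0.053). The difference of ZNF134 with SP was lost without A549 CA replicate 4 (adjusted p = 0.053), A549 SP replicate 3 (adjusted p = 0.090) or EA.hy926 SP replicate 2 (adjusted p = 0.082). The difference of ZNF274 with SP was lost without EA.hy926 SP replicate 1 (adjusted p = 0.058). The difference of ZNF281 with SP was lost without EA.hy926 SP replicate 2 (adjusted p = 0.083). The difference of ZNF548 with SP was lost without A549 CA replicate 4, A549 SP replicate 1, A549 SP replicate 3 or EA.hy926 SP replicate 2 (adjusted p between 0.056 and 0.11). The difference of ZNF597 with SP was lost without A549 CA replicate 3, A549 CA replicate 4, A549 SP replicate 1, A549 SP replicate 3, EA.hy926 CA replicate 1, EA.hy926 CA replicate 4, EA.hy926 SP replicate 1 or EA.hy926 SP replicate 2, or by limma-voom (adjusted p between 0.053 and 0.13). The difference of ZNF697 with SP was lost without A549 SP replicate 2 (adjusted p = 0.062) or A549 SP replicate 3 (adjusted p = 0.058). The difference of ZNF775 with SP was lost without A549 CA replicate 1, A549 CA replicate 3, A549 CA replicate 4, A549 SP replicate 1, A549 SP replicate 3, EA.hy926 CA replicate 1, EA.hy926 CA replicate 2, EA.hy926 CA replicate 4, EA.hy926 SP replicate 1 or EA.hy926 SP replicate 2, by limma-voom, or with the coculture as a block (adjusted p between 0.050 and 0.14).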

How the results depend on the processing

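No result changed direction under any alternative. Of the values of named members, 14032 kept their side of the threshold, 269 lost a call and 123 gained one. The authors' filter of at least 30 CPM in 3 libraries kept 56 members in EA.hy926 and 60 in A549 cells, so the counts had to fall. Lower members with SOANAP-SP, SOAβPIN-SP and SP were then 9, 9 and 7 of the 56 in EA.hy926 and 14, 8 and 8 of the 60 in A549 cells. The share lower fell as well, since the main fit had 33.8%, 28.02% and 19.3% in EA.hy926 and 45.9%, 29.95% and 19.3% in A549 cells. The share over all genes under this filter is not given here. Higher members were 5, 5 and 4 in EA.hy926 and 3, 3 and 0 in A549 cells, and 2 members were lower in all 6 comparisons. Between SOANAP-SP and SOAβPIN-SP, 0 and 3 members differed in EA.hy926 and A549 cells, and between SOANAP-SP and SP, 0 and 2. With library totals as the scale, A549 cells had 3 members higher with SOANAP-SP and 2 with SP, with 46 differing between SOANAP-SP and SOAβPIN-SP and 55 between SOANAP-SP and SP, where EA.hy926 cells had 5. The cause was not tested. A filter on the mean count left 0 higher with SP in A549 cells.

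With the replicate number as a block, 2 members were higher with SP in A549 cells, 1 differed between SOANAP-SP and SP in EA.hy926 cells and 3 between SOAβPIN-SP and SP in A549 cells, where DESeq2 called 4. Otherwise the block kept each count of members within 1.5 times. The block of cocultures changed the call of the line difference with SP for ZNF589 and ZNF775 and of no other named member.

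Leaving out 1 library at a time, lower members with SOANAP-SP, SOAβPIN-SP and SP ranged over 59 to 69, 52 to 59 and 29 to 40 in EA.hy926 cells and 89 to 93, 55 to 68 and 24 to 40 in A549 cells, with 24 reached without A549 SP replicate 3. Higher members ranged over 11 to 14, 7 to 11 and 7 to 10 in EA.hy926 cells and 5 to 8, 5 to 10 and 0 to 3 in A549 cells. There the count with SOAβPIN-SP was 5 without SOAβPIN-SP replicate 4 or CA replicate 4, and that with SP was 0 without SP replicate 1, CA replicate 2 or CA replicate 4 and 3 without CA replicate 3. Members differing between SOANAP-SP and SOAβPIN-SP ranged over 1 to 4 in EA.hy926 and 20 to 34 in A549 cells, between SOANAP-SP and SP over 0 to 6 and 5 to 37, and between SOAβPIN-SP and SP over 0 to 0 and 0 to 1, the 1 without A549 SP replicate 1. The line difference was lower in EA.hy926 cells for 7 to 12, 12 to 16 and 2 to 4 members and higher for 40 to 49, 24 to 30 and 10 to 16. The 2 with SP were reached without A549 SP replicate 1, A549 SP replicate 3 or EA.hy926 CA replicate 2. Members lower in all 6 comparisons ranged over 8 to 13.

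In every such fit, 51 of 70, 40 of 58 and 27 of 40 lower calls held in EA.hy926 cells and 83 of 95, 53 of 62 and 21 of 40 in A549 cells. By mean level, 32, 24 and 14 of the 69 members in the low, middle and high tertile were lower with SOANAP-SP in EA.hy926 cells and 38, 37 and 20 in A549 cells.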
